A study of Homo sapiens with 6 samples.

Results

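The 10 genes described here encode the core of the switch that lets a cell leave G1 and start DNA synthesis. They are the pocket protein genes RB1, RBL1 and RBL2, the CDK inhibitor genes CDKN1A and CDKN1B, the D-type cyclin gene CCND1 with its kinase genes CDK4 and CDK6, and the E-type cyclin genes CCNE1 and CCNE2. They were chosen by symbol, through the Ensembl identifiers of the count table, and all 10 were among its 18318 usable genes. Pocket proteins bind E2F transcription factors and hold back the genes needed for S phase. Cyclin D with CDK4 or CDK6, and then cyclin E with CDK2, phosphorylate the pocket proteins and free the E2F factors, while p21 and p27 bind cyclin-CDK complexes and slow them. In melanoma this switch lies downstream of growth factor and MAP kinase signalling, which raises cyclin D1.

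A375, an established line from a human melanoma, was profiled by RNA sequencing. Cells of 3 libraries were transfected with pcDNA3.1 carrying SLNCR, labelled full length and wild type, and cells of 3 with the vector backbone alone. SLNCR is the long non-coding RNA LINC00673. Per the labels, expression was driven from a CAG promoter, and both groups were kept for 48 h in puromycin at 2 µg/mL before RNA was taken, so the controls share the transfection and the selection. The labels call the libraries biological replicates without saying how cultures were separated, so the tests measure the spread between these libraries. The study's title concerns SLNCR and E2F1, the factor that RB1 restrains, and the comparison here asks whether the genes upstream of E2F1 differ when SLNCR is raised.

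LINC00673 was counted at 193 to 195 reads with the empty vector and 1786 to 2569 with SLNCR, in accord with the labels. Library totals ran from 9287450 to 10822083 counts. The cell type label reads epithelial, but EPCAM, CDH1, KRT5, KRT14, KRT19 and ESRP1 each averaged below 1 CPM (library-size-scaled counts, with TMM factors) in both groups. KRT8 and KRT18 were abundant. Of the melanoma markers MITF, SOX10 and CSPG4 were present, and PMEL, DCT and TYRP1 averaged below 1 CPM. Summed melanoma markers were 287 to 300.2 CPM with the empty vector and 280.3 to 295 CPM with SLNCR, with 0 of the 5 tested genes passing. Summed epithelial markers were 544 to 606 CPM and 432 to 488 CPM. There KRT8 and KRT18 fell by 0.31 and 0.29 on the log2 scale (adjusted p = 0.0143 and 0.0137 by edgeR). Their GC content is 56.2% and 55.7%, and these values carry no correction for it. Summed abundant non-coding RNAs, read for RNA quality, were 31824 to 36902 CPM and 31140 to 33470.0 CPM, with 0 of 10 passing. Of all tested genes 16.5% passed (edgeR adjusted p below 0.05), so 0 calls in lists this short say little. RN7SK was the largest part of the non-coding RNA sum, which hides differences between libraries. SLNCR replicate 3 was the lowest library in RN7SL1 (2207 CPM), RN7SL2 (1058 CPM), RPPH1 (2040 CPM), SCARNA2 (111 CPM), MALAT1 and SNORD3A. It was not the lowest in RN7SK, RMRP, NEAT1 or RNU4ATAC. The part of these shifts in the results was not tested. These are RNA levels of whole cultures, in which fewer expressing cells and less RNA per cell cannot be told apart.

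Within the empty vector cells the 10 genes spanned more than an order of magnitude per length. On the scale of CPM per kilobase of annotated exon, CCND1 stood at 109 ± 4.25 and CDK4 at 105 ± 6.42 (SD, n = 3 each), and the libraries of this pair overlapped. CDKN1A followed at 90.6 ± 4.80 and CDK6 at 50.5 ± 2.32, each apart from its neighbours. The pocket protein genes were lower, RB1 at 15.7 ± 1.08 and RBL1 at 11.0 ± 0.773. CCNE1 stood at 9.40 ± 0.381, CDKN1B at 8.23 ± 0.720 and RBL2 at 8.11 ± 0.412. The values of CCNE1 lay just above those of CDKN1B, and those of CDKN1B and RBL2 overlapped. CCNE2 was lowest, at 5.90 ± 0.172. The order depends on which exons are counted as the gene's length. With the longest transcript alone, 5 of the 10 genes kept their rank, CDK4 came first at 159.7 ± 9.80 CPM per kilobase, and RBL2 moved above CCNE1 and RBL1 at 12.1 ± 0.614. The libraries of RBL2, CCNE1 and RBL1 overlapped on that scale. In the SLNCR libraries, per kilobase of annotated exon, the first 6 places were unchanged and CCNE1 dropped from the seventh place to the ninth. Its values there, 7.29 to 8.71, lay below those of CDKN1B but overlapped those of RBL2, 8.27 to 9.46.

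**Figure D1:**
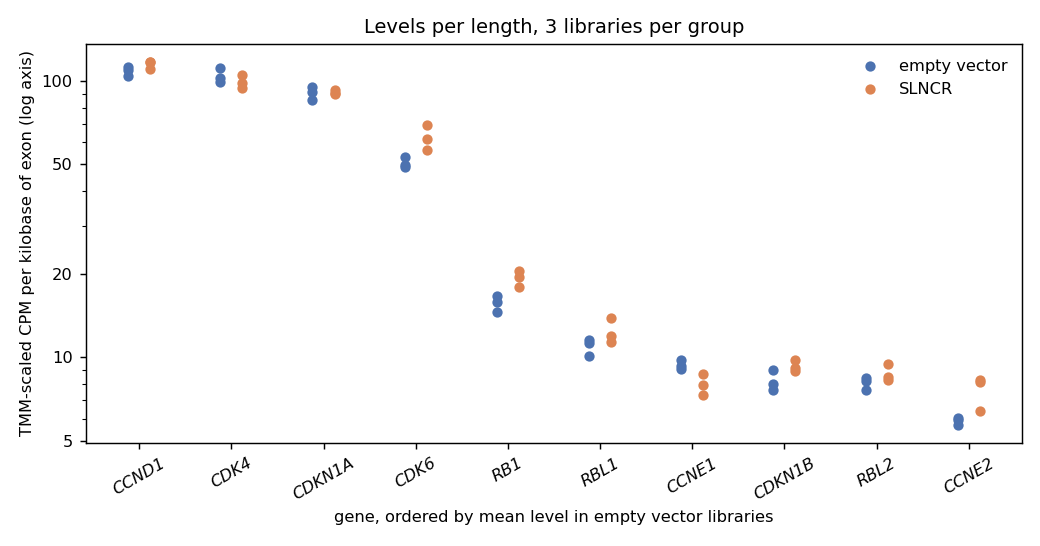
TMM-scaled CPM per kilobase of annotated exon (log axis) for the 10 genes, ordered by their mean in the empty vector libraries, with 1 point per library and 3 libraries per group. CCND1, CDK4 and CDKN1A lie near 100 in both groups, CDK6 near 50 to 70, and the other 6 genes at about 20 or below.

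After SLNCR, 3 of the 10 genes rose and 0 fell at an adjusted p below 0.05 (edgeR quasi-likelihood test, Benjamini-Hochberg over 12797 genes). The genes that rose were RB1, CDK6 and CCNE2, each by 1.23-fold to 1.29-fold. Of all tested genes 16.5% passed, 8.84% upward and 7.67% downward. The median log2 fold change was 0.14 over the 10 genes and -0.01 over all tested genes. For RB1, CDK6, CCNE1 and CCNE2 (4 of the 10) no library of the one group reached the range of the other, against 38.9% of all tested genes, so the members' share of non-overlapping genes was near the background. The 3 genes that rose are also the 3 with the lowest GC content among the 10, at 36.9% to 39.5%. With a correction of each library for gene GC content 0 of the 10 genes passed, against 0.0156% of all tested genes. The unadjusted edgeR p of 3 of the 10 (CDKN1A, CCND1 and CDK6) lay below 0.05 in that fit, against 15.1% of all tested genes. LINC00673, which has no GC value here and was treated as a gene of median GC content, missed the threshold in that fit (adjusted p = 0.0524 by edgeR), so a missed threshold there does not show that a gene was unchanged.

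**Figure D2:**
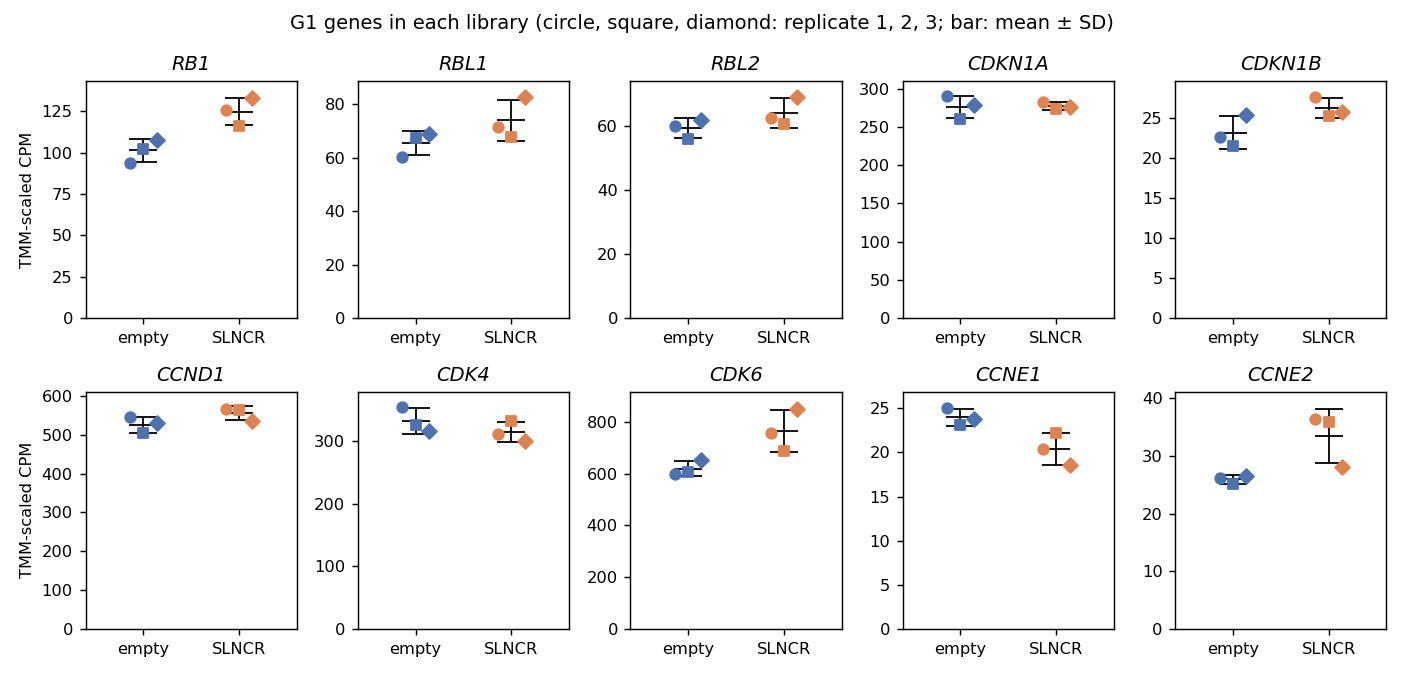
TMM-scaled CPM of each gene in each of the 6 libraries, on axes that start at 0, with the mean and SD of each group. RB1 and CDK6 are higher in every SLNCR library than in any empty vector library, CCNE2 is too but with SLNCR replicate 3 near the controls, and CCNE1 is lower in every SLNCR library.

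RB1 encodes the founding pocket protein, the chief restraint on activating E2F factors, and lies on chromosome 13 from 48303726 to 48599436 (GRCh38, plus strand). Its level was 94.1, 102 and 108 CPM in empty vector replicates 1, 2 and 3, and 126, 116 and 133 CPM in SLNCR replicates 1, 2 and 3. All SLNCR libraries lay above all controls. The rise was 1.23-fold, or 0.30 in log2 (SE 0.0678, adjusted p = 0.0147 by edgeR). Corrected for GC content, the log2 fold change was 0.08 (SE 0.0486, adjusted p = 0.421 by edgeR), and the SLNCR libraries still lay above the controls, at 0.11, 0.06 and 0.09 against -0.05, 0.02 and 0.03 on the log2 scale relative to the empty vector mean.

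RBL1 encodes p107, a pocket protein of cycling cells that binds repressor E2F factors and is itself a known E2F target. It lies on chromosome 20 from 36996349 to 37095995 (GRCh38, minus strand). Because E2F factors are the study's subject, the 300 bases around annotated start sites (250 before and 50 after) were searched on both strands for the E2F-type motifs TTTCGCGC, TTTGGCGC, TTTCCCGC and TTTGGCGG. RBL1 held 2 matches, which do not overlap each other and are shown because they sit side by side just before its start site, in capitals in the RefSeq sequence (GRCh38.p14, chr20:37095998-37096049, minus strand), printed up to the base before the start.
RBL1: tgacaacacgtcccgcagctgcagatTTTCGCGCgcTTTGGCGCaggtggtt
RefSeq windows (10 in all) were matched for 8 of the 10 genes, all but CCND1 and CCNE2, and RBL1 alone of these 8 held a match. Of all 35116 windows 3.35% held at least 1 of the motifs, and 0.652% held TTTGGCGC. The RB1 window is set around a later RefSeq start, 172724 bases inside the gene, and so does not cover the first start of RB1. The start sites of the CDKN1A, CDKN1B and CDK4 windows likewise lay 2254, 2310 and 3703 bases inside the GENCODE interval, and those of the RBL2 windows 494 and 1642 bases. Of the genes without a match, CDK6 and CCNE1 alone had a window that covers their first start. A match describes letters and shows no binding.

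RBL1 stood at 60.2, 67.2 and 69.0 CPM in empty vector replicates 1, 2 and 3 and at 71.5, 67.7 and 82.5 CPM in SLNCR replicates 1, 2 and 3. The groups overlapped, with SLNCR replicate 2 inside the range of the controls. The log2 fold change was 0.17 (SE 0.0801, adjusted p = 0.134 by edgeR), and with the GC correction 0.01 (SE 0.0615, adjusted p = 0.971 by edgeR). Without SLNCR replicate 2 the log2 fold change was 0.23 (SE 0.0820, adjusted p = 0.0384 by edgeR).

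RBL2 encodes p130, the pocket protein of quiescent cells and of the DREAM repressor complex (chromosome 16, 53433977 to 53491649, plus strand). It was at 60.1, 56.1 and 61.9 CPM with the empty vector and 62.5, 60.5 and 69.2 CPM with SLNCR, and the groups overlapped. Its log2 fold change was 0.11 (95% interval -0.05 to 0.26, adjusted p = 0.308 by edgeR). In GENCODE release 29 no exon of another gene overlaps exons of RB1, CDKN1B or CCNE1, but exons of AKTIP on the opposite strand cover 8.33% of the exon bases of RBL2, and those of ENSG00000279344, also on the opposite strand and not analysed here, cover 9.85%. The strand setting is not given in the sources used here, so reads in such stretches cannot be assigned. The log2 fold change of AKTIP was 0.23 (SE 0.0918, adjusted p = 0.0843 by edgeR).

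CDKN1A, which encodes p21, a p53 target that blocks cyclin-CDK complexes, was nearly level between groups (chromosome 6, 36676460 to 36687339, plus strand). It was counted at 290.1, 261 and 278 CPM with the empty vector and 283, 274 and 276 CPM with SLNCR. All SLNCR libraries lay within the range of the controls. The log2 fold change was 0.01, with a 95% interval of -0.10 to 0.12 (adjusted p = 0.936 by edgeR). CDKN1A has the highest GC content of the 10 genes, 58.1%, and the GC correction moved it furthest upward, to 0.18 (SE 0.0455, adjusted p = 0.0840 by edgeR). On the corrected scale its SLNCR libraries stood at 0.20, 0.11 and 0.25 and its controls at 0.02, -0.08 and 0.06 relative to the empty vector mean, with no overlap. The corrected value passed without SLNCR replicate 2 (0.22, adjusted p = 0.00731 by edgeR) and without SLNCR replicate 3 (0.15, adjusted p = 0.0467 by edgeR).

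CDKN1B, which encodes p27, an inhibitor that accumulates in resting cells, was much the lower of the inhibitor genes per length, as given above (chromosome 12, 12715058 to 12722371, plus strand). It stood at 22.5, 21.5 and 25.4 CPM with the empty vector and 27.6, 25.2 and 25.7 CPM with SLNCR. The lowest SLNCR library lay just under the highest control. The log2 fold change was 0.18 (95% interval -0.02 to 0.38, adjusted p = 0.191 by edgeR) and was the same to 2 decimals with the GC correction (adjusted p = 0.364 by edgeR). The GC content of CDKN1B, 47.7%, is close to the median of all tested genes, 47.9%.

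CCND1 encodes cyclin D1, the growth-factor-responsive partner of CDK4 and CDK6 (chromosome 11, 69641087 to 69654474, plus strand). It was measured at 544, 504 and 529 CPM with the empty vector and 566, 564 and 535 CPM with SLNCR, and the groups overlapped through SLNCR replicate 3. The log2 fold change was 0.08 (95% interval -0.02 to 0.18, adjusted p = 0.255 by edgeR). It was 0.12 after the correction (SE 0.0377, adjusted p = 0.135 by edgeR), and it passed in that fit without SLNCR replicate 3 (0.14, adjusted p = 0.0203 by edgeR). Exons of LTO1 on the opposite strand, not analysed here, cover 10.3% of the exon bases of CCND1.

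CDK6 and CDK4, the kinases that cyclin D activates, had values on different sides of 0. CDK6 (chromosome 7, 92604921 to 92836594, minus strand) was at 599, 608 and 652 CPM with the empty vector and 755, 688 and 851 CPM with SLNCR. Every SLNCR library lay above every control, with SLNCR replicate 2 nearest to them. CDK6 rose 1.23-fold, or 0.30 in log2 (SE 0.0643, adjusted p = 0.0139 by edgeR). After the correction CDK6 stood at 0.13 (SE 0.0400, adjusted p = 0.142 by edgeR), and it passed in that fit without SLNCR replicate 2 (0.17, adjusted p = 0.0151 by edgeR). Its corrected SLNCR values were 0.12, 0.04 and 0.21 relative to the empty vector mean, still above all controls, the highest of which was 0.02.

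CDK4 (chromosome 12, 57747727 to 57756013, minus strand) was at 354, 325 and 315 CPM with the empty vector and 311, 333 and 300.3 CPM with SLNCR, and the groups overlapped. The log2 fold change was -0.08 (95% interval -0.19 to 0.04, adjusted p = 0.357 by edgeR), and the sign turned with the GC correction (0.03, adjusted p = 0.800 by edgeR). Exons of TSPAN31 on the opposite strand cover 43.2% of the annotated exon bases of CDK4. TSPAN31 had 302 reads per library and a log2 fold change of 0.19 (SE 0.0913, adjusted p = 0.152 by edgeR).

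The E-type cyclins, which activate CDK2 at the entry into S phase, also lay on different sides of 0. CCNE2 (chromosome 8, 94879770 to 94896678, minus strand) had the largest log2 fold change of the 10 genes, 0.37 (SE 0.101, adjusted p = 0.0232 by edgeR). Its level was 26.1, 25.1 and 26.6 CPM with the empty vector and 36.4, 35.9 and 28.0 CPM with SLNCR. SLNCR replicates 1 and 2 were well above the controls and replicate 3 only just. Without SLNCR replicate 3 the log2 fold change was 0.48 (adjusted p = 0.00135 by edgeR). With the GC correction it was 0.16 (SE 0.113, adjusted p = 0.537 by edgeR), and SLNCR replicate 3 fell below all controls at -0.20, while SLNCR replicates 1 and 2 stood at 0.27 and 0.32. Exons of INTS8, on the opposite strand, cover 37.0% of the annotated exon bases of CCNE2. INTS8 had 626 reads per library and also rose, by 0.23 (SE 0.0733, adjusted p = 0.0415 by edgeR), and its part in the count of CCNE2 was not tested.

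CCNE1 (chromosome 19, 29811898 to 29824308, plus strand) was at 25.0, 23.1 and 23.7 CPM with the empty vector and 20.3, 22.2 and 18.6 CPM with SLNCR. All SLNCR libraries lay below all controls, and the log2 fold change of -0.23 (SE 0.0978) did not pass (adjusted p = 0.102 by edgeR). It passed without SLNCR replicate 2 (-0.30, adjusted p = 0.0477 by edgeR). With the GC correction the log2 fold change was -0.14 (SE 0.0909, adjusted p = 0.470 by edgeR), and 1 SLNCR library reached the range of the controls.

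Ratios between genes of the same role do not depend on how libraries are scaled. The log2 ratio of CCNE2 to CCNE1 reads was 0.06, 0.12 and 0.16 with the empty vector and 0.84, 0.70 and 0.59 with SLNCR. This is a difference of 0.59, and the lowest SLNCR library lay well above the highest control. For CDK6 to CDK4 the log2 ratios were 0.76, 0.90 and 1.05 against 1.28, 1.05 and 1.50. The groups nearly touched there, and the difference was 0.37. For CDKN1A to CDKN1B they were 3.69, 3.60 and 3.45 against 3.36, 3.44 and 3.42, a difference of -0.17. Each of the 3 ratios gave a two-sided exact permutation p of 0.1, and 0.1 after Benjamini-Hochberg adjustment, which is the smallest that 3 libraries against 3 allow. The ratios were chosen after the values were seen. The genes of each ratio also differ in GC content, and with the GC correction the differences were 0.30 for CCNE2 to CCNE1, 0.10 for CDK6 to CDK4 and 0.01 for CDKN1A to CDKN1B. Relative to the empty vector mean, corrected CCNE2 stood at 0.27, 0.32 and -0.20 in SLNCR replicates 1, 2 and 3. Corrected CCNE1 stood at -0.15, -0.05 and -0.24, so replicate 3 hardly set them apart. Corrected CDK6 stood at 0.12, 0.04 and 0.21, and CDK4 at 0.01, 0.07 and -0.001. CDK4 was thus the higher in SLNCR replicate 2, as in empty vector replicate 1 (0.07 against -0.003).

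**Figure D3:**
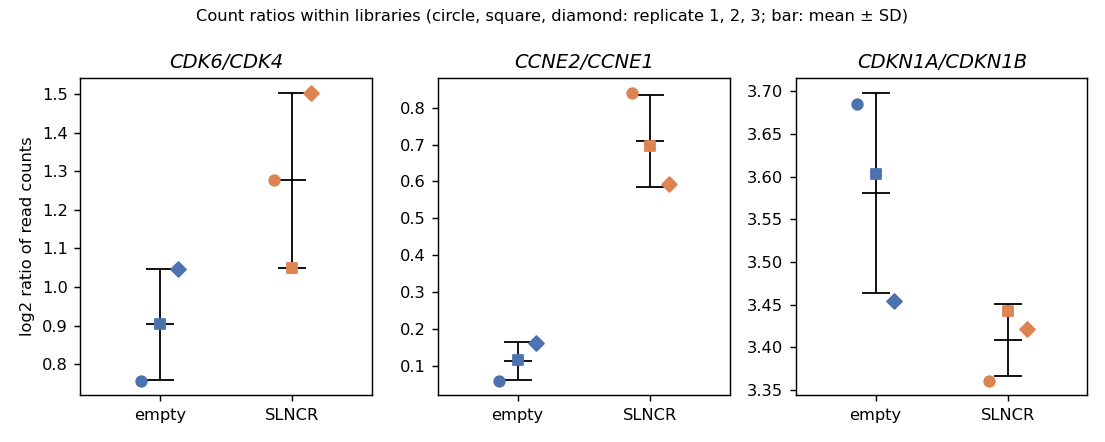
Log2 ratio of read counts within each library for 3 pairs of genes with the same role, 3 libraries per group, with mean and SD and axes that do not start at 0. The CCNE2 to CCNE1 ratio is at 0.06 to 0.16 in the controls and 0.59 to 0.84 after SLNCR, while for CDK6 to CDK4 the highest control and the lowest SLNCR library both lie at 1.05.

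Base composition moved with the groups across the whole table. Over 12790 genes, the deviation of a library from the mean of all 6 changed per 10 percentage points of GC content by 0.13, 0.09 and 0.04 on the log2 scale in empty vector replicates 1, 2 and 3, and by -0.07, -0.03 and -0.16 in SLNCR replicates 1, 2 and 3. RB1 and CDK6 kept this order through all 6 libraries, rising as the change with GC content fell, and other genes kept it in part. Of the controls, replicate 1 had the lowest RB1, RBL1 and CDK6 and the highest CDKN1A, CCND1, CDK4 and CCNE1. Of the SLNCR libraries, replicate 3 had the highest RB1, RBL1, RBL2 and CDK6 and the lowest CCND1, CDK4 and CCNE1. CCNE2, with the lowest GC content of all 10 at 36.9%, did not follow this order and of the SLNCR libraries was lowest in replicate 3. CDKN1A and CCND1, at 58.1% and 50.3% GC, did not follow it between groups, with log2 fold changes of 0.01 and 0.08. CDKN1A was lowest in replicate 2 of the SLNCR libraries. Across the 10 genes the correction took the pocket protein genes to between 0.01 and 0.08, left CDKN1B at 0.18, and raised CDKN1A, CCND1 and CDK4.

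**Figure D4:**
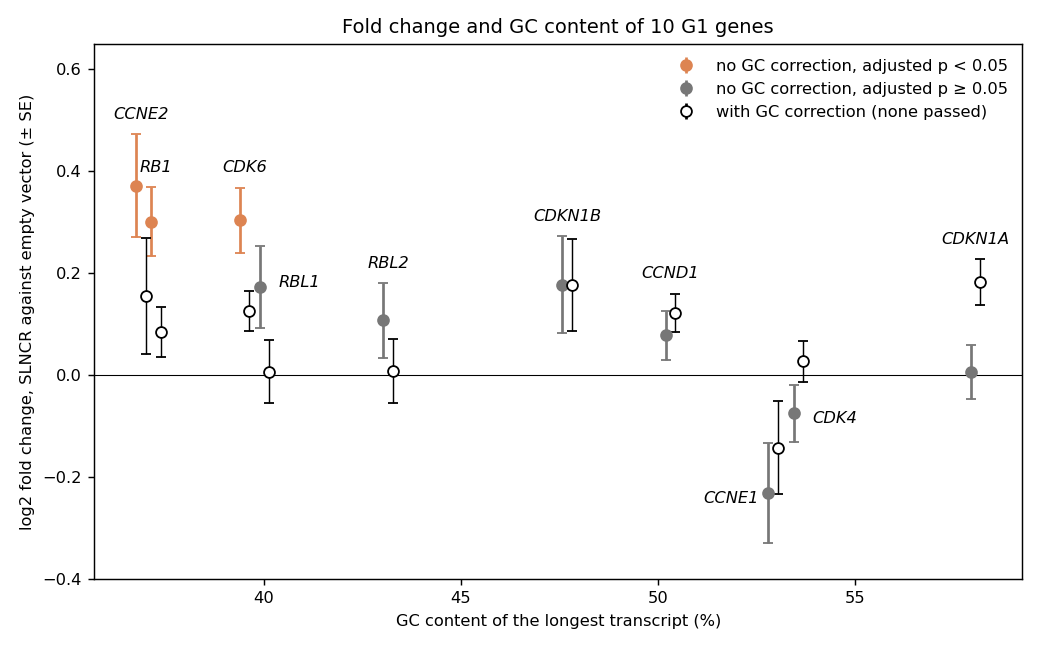
Log2 fold change after SLNCR (± SE) against the GC content of the longest transcript, for the 10 genes, without (filled) and with (open) the GC correction. The 3 genes that passed without correction sit at the left between 0.30 and 0.37, and with correction CCNE1 alone stays below 0.

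The 3 calls also changed with the libraries in the fit, as did those of the whole table. Without SLNCR replicate 1 the log2 fold changes were 0.30 for RB1, 0.31 for CDK6 and 0.31 for CCNE2. With all libraries they were 0.30, 0.30 and 0.37. RB1, CDK6 and CCNE2 each passed without empty vector replicate 3, SLNCR replicate 2 or SLNCR replicate 3, and lost the call when SLNCR replicate 1, or either of the first and the second empty vector replicates, was absent. In these 6 fits RB1 ranged from 0.25 to 0.35, CDK6 from 0.22 to 0.37 and CCNE2 from 0.31 to 0.48 on the log2 scale. In those latter 3 fits 1 or 2 of all tested genes passed, against 3366 without SLNCR replicate 2, when 5 of the 10 genes did, RBL1 upward and CCNE1 downward being added.

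**Figure D5:**
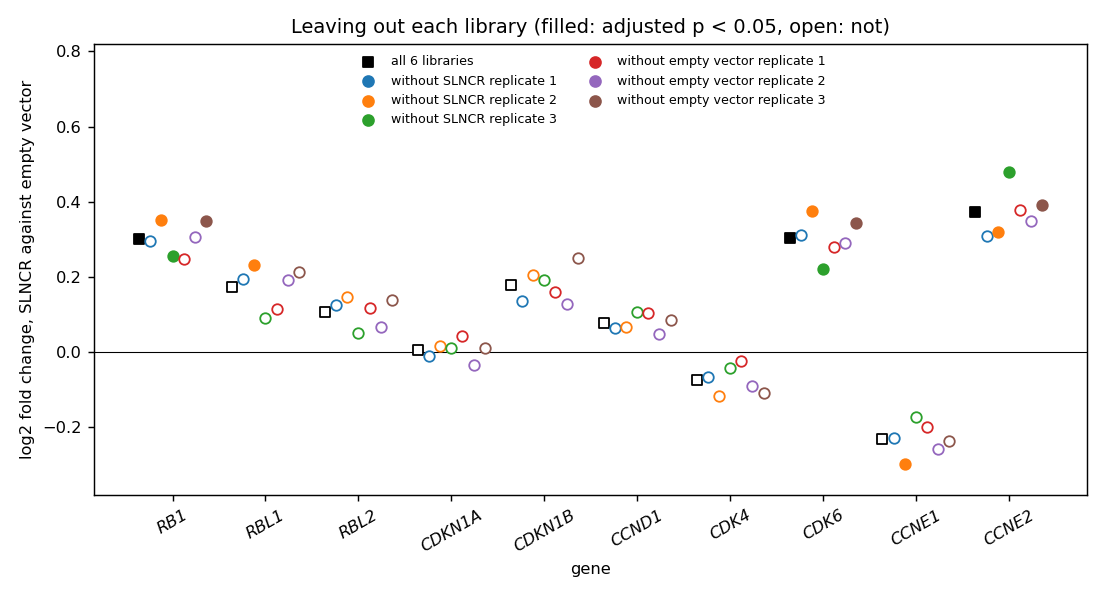
Log2 fold change of each gene with all 6 libraries (square) and with each library left out in turn (circles), filled where the edgeR adjusted p was below 0.05. RB1, CDK6 and CCNE2 stay above 0.2 in every fit but are filled in 3 of 6, and CDKN1A straddles 0.

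Around these 10 genes, a list of 45 further G1 control genes gave a mixed picture. Of 40 tested members 7 rose, 2 fell and 31 did not pass, with a median log2 fold change of 0.02, where 8.84% of all tested genes rose and 7.67% fell. After correction for GC content 0 of the 40 passed, and the unadjusted edgeR p of 6 lay below 0.05, a share near the 15.1% of all tested genes. All 9 calls of this list were lost when SLNCR replicate 1, or either of the first and the second empty vector replicates, was absent. With 1 library left out in turn LIN52 passed in 0 of the 6 fits, CUL3 and CCND3 in 1, CCNA2, CCNH and SKP2 in 2, and CUL4B, LIN9 and E2F1 in 3. Without SLNCR replicate 3 the log2 fold change of CUL3 was 0.13, that of CCNH 0.19 and that of SKP2 0.15, against 0.23, 0.29 and 0.23 with all libraries. CCND2, CCNA1, CDK3 and CDKN2B were not analysed here, and CDKN1C had too few reads to test.

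Of the other cyclins and kinases, CCNA2, the S phase cyclin, rose by 0.19 (SE 0.0605, adjusted p = 0.0434 by edgeR, and 0.0507 with upper quartile factors), and CCND3, another D-type cyclin, fell by 0.26 on the log2 scale (SE 0.0837, adjusted p = 0.0411 by edgeR, and 0.0637 by DESeq2). CCND3 stood at 55.2, 49.0 and 48.8 CPM with the empty vector and 41.7, 46.7 and 38.8 CPM with SLNCR, with no overlap. CDK2 did not pass. Among CDK activators CCNH, the cyclin of the CDK-activating kinase, rose by 0.29 (adjusted p = 0.0313 by edgeR). CDK7, the kinase it activates, was at 0.19 (adjusted p = 0.0712 by edgeR). Where 16.5% of all tested genes passed, 0 of 3 further inhibitors tested passed in edgeR. The only one of them with an unadjusted p below 0.05 was CDKN2D, an inhibitor of CDK4 and CDK6, at -0.45 (adjusted p = 0.0973 by edgeR).

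Of 13 ubiquitin ligase genes 3 rose and 10 did not pass, where 8.84% of all tested genes rose. SKP2, which targets p27 for degradation, rose by 0.23 (adjusted p = 0.0320 by edgeR). The cullin genes CUL4B and CUL3, scaffolds of ligases, rose by 0.30 and 0.23 (adjusted p = 0.0139 and 0.0469 by edgeR), and CUL3 missed the threshold with upper quartile factors (adjusted p = 0.0505 by edgeR) and in limma-voom (adjusted p = 0.0561). SKP1, which links F-box proteins such as SKP2 to their cullin, was at 0.15 (adjusted p = 0.0620 by edgeR), and FBXO31, an F-box gene for cyclin D1 turnover, at -0.23 (adjusted p = 0.0660 by edgeR). In the MuvB core, which joins p130 and p107 to form DREAM, LIN9 rose by 0.30 and LIN52 by 0.42 (adjusted p = 0.0259 and 0.0458 by edgeR), and 4 of the 6 genes of that group did not pass. LIN52 missed the threshold with upper quartile factors (adjusted p = 0.0510 by edgeR). Of 10 E2F and DP genes E2F1 alone passed, falling by 0.32 on the log2 scale. E2F1 was at 52.4, 46.0 and 48.0 CPM with the empty vector and 38.9, 43.1 and 35.3 CPM with SLNCR. The 7 genes of the list that rose had a GC content of 35.2% to 43.6%, and CCND3 and E2F1 of 56.2% and 62.5%. After the correction CCND3 stood at -0.12 and E2F1 at -0.08, and the 7 rises at between 0.01 and 0.34, LIN52 being the highest.

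Over the 6 libraries, the genes with the nearest pattern to each of the 10 were sought among 48 other genes of both lists with a mean of at least 50 reads per library, by the root mean square difference of log2 CPM from the empty vector mean. CDK6 and RB1 were both nearest to CUL4B, at 0.0244 and 0.0383. CDK4 was nearest to CDK2 at 0.0325, CCNE1 to CCND3 at 0.0379 and RBL1 to E2F7 at 0.0396. RBL2 and CCND1 were nearest to CUL1 (0.0505 and 0.0504), CDKN1A to CCND1 (0.0574) and CDKN1B to E2F6 (0.0825). CCNE2 had no close neighbour, the nearest being LIN9 at 0.176. These patterns carry no GC correction, and genes outside the lists were not searched. CDK6, RB1 and CUL4B have a GC content of 39.5%, 37.3% and 37.7%, while CDKN1A and CCND1 lie further apart, at 58.1% and 50.3%. The part of base composition in these patterns was not tested.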

How the data were processed

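The authors deposited 1 table of raw counts per gene for the 6 libraries, which are whole numbers. The tools named in the submitters' processing notes are cutadapt, STAR and DESeq2 (version 1.24.07), and the build is GRCh38. Neither the read counter nor the annotation nor the strand setting is given in the sources used here. Of 20238 rows, 1857 name no gene (2.15% to 2.59% of counts) and were left out, as were 63 rows repeating the counts of a neighbouring row with a mean of at least 10. GENCODE release 29 (GRCh38) gave coordinates, exon lengths and the GC content of the longest transcript.

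Groups were compared with edgeR 4.0.16 (R 4.3.3): TMM factors, default filter, robust quasi-likelihood F-test, two-sided, Benjamini-Hochberg over 12797 genes at 0.05. Standard errors come from the fold change and F. The GC correction subtracted a loess curve (span 0.5) per library. Alternatives were other scaling factors and filters, DESeq2 1.42.0, limma-voom (limma 3.58.1), a replicate block, unnamed rows kept, and each library left out. The GC correction without each library and the count ratios were added after seeing the data.

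All 10 genes are described whatever their result. Of the wider list, the genes that passed and the 4 with the next smallest adjusted p are named, with the gene nearest in pattern to each of the 10. The genes and lists were chosen with earlier results of these data known.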

Additional observations from a re-analysis of the deposited data

How the results depend on the processing

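RB1, CDK6 and CCNE2 passed under each other scaling, filter and tool tried, and lost the call with the GC correction or on dropping SLNCR replicate 1 or either of the first 2 empty vector libraries. With the GC correction and without SLNCR replicate 2, CDK6 passed. The cause was not tested. The count of the 10 genes that passed was 0 with the GC correction, 1 (CDKN1A) with the GC correction and replicate block, 0 to 5 with 1 library left out, and 0 to 2 with the GC correction and 1 library left out. For the wider list these counts were 0, 2, 0 to 16 and 0 to 2, and for all tested genes 2, 409, 1 to 3366 and 0 to 667. The data did not settle whether replicate numbers pair the libraries. Deviations of same-numbered libraries correlated at 0.04, 0.02 and 0.19 over genes. Empty vector replicate 1 and SLNCR replicate 2 correlated best with each other (0.14), and the other libraries with their own number. With the replicate block 3523 genes passed in all, 3 of the 10 and 12 of the wider list. SLNCR (LINC00673) stayed between 3.26 and 3.52 on the log2 scale when 1 library was left out, and at 3.38 with the GC correction (edgeR adjusted p = 0.0524, and up to 0.409 with 1 library left out too). It has no GC value here and was given the median of all genes, so its fold change under the correction says nothing about its own base composition. The sign of CDK4 turned with the GC correction (0.027, and 0.027 with the replicate block too), and that of CDKN1A with upper quartile factors (-0.0040). Over the 12 fits that leave out 1 library, 6 of them with the GC correction, values ran from -0.12 to 0.062 for CDK4, -0.034 to 0.22 for CDKN1A, -0.041 to 0.23 for RBL1, -0.031 to 0.15 for RBL2, -0.014 to 0.36 for CCNH and -0.042 to 0.29 for CUL3, and so turned sign. DESeq2 gave no adjusted p for LIN52. By longest transcript length 5 of the 10 genes kept their place in the order of levels. At these totals CDKN1B, CCNE1 and CCNE2, the members with the fewest reads, have the largest standard errors of the 10.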
